A study of Mus musculus with 16 samples.

Results

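The effect of desipramine (DMI) over both surgeries was taken as the difference between all 8 DMI libraries and all 8 saline libraries of dorsal root ganglia (DRG), with surgery as the other term of an additive model. These 16 libraries are every library of the series, and every Ensembl gene of the deposited counts was kept at the start. Bulk RNA sequencing had been done on L3 to L6 DRGs of male C57Bl6/J mice aged 3 to 4 months. The mice had received spared nerve injury (SNI), in which branches of the sciatic nerve are cut while another is left whole, or a sham operation. Treatment began 4 weeks after surgery by the labels, while the methods text of the study gives this interval in months. DMI at 15 mg/kg, or saline, was then injected into the peritoneum 2 times a day for 3 weeks. There were 4 mice in each of Sham-Saline, Sham-DMI, SNI-Saline and SNI-DMI. No allele or transgene was involved, and all mice received surgery and injections.

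Desipramine is a tricyclic antidepressant that blocks the noradrenaline transporter and also binds histamine, muscarinic, adrenergic and serotonin receptors. As a cationic amphiphilic drug it collects in lysosomes, where compounds of this kind interfere with acid sphingomyelinase and cholesterol export. The DRG holds the cell bodies of sensory neurons together with satellite glia, Schwann cells, vessels and resident immune cells, and it lies outside the blood-brain barrier.

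Between 41194238 and 73920332 read pairs per library fell on genes. The labels name the tissue spinal cord and the cell type DRG. All 8 DRG neuron markers were detected at a summed 4180 to 4930 CPM, which are counts scaled by library size, whereas 5 of 11 spinal cord markers passed the filter on low counts, at a summed 3.32 to 26.9 CPM. The sample numbers in the labels ran from 17 to 24 for DMI and from 33 to 40 for saline. What these numbers record is not stated, and any difference that goes with them cannot be told apart from DMI. SNI-DMI replicate 2 had the skeletal muscle myosin gene Myh4 at 86.6 CPM, against at most 0.899 CPM in the other DMI libraries and 0.156 to 22.5 CPM in saline libraries. Sham-DMI replicate 2 was the lowest DMI library for several ribosomal and proteasome genes.

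DMI was associated with small changes in many genes. Of 21371 genes tested, 6380 (29.9%) had an adjusted p under 0.1 in edgeR's quasi-likelihood test, 3074 higher (14.4%) and 3306 lower (15.5%). The median absolute log2 fold change of these genes was 0.22, and 150 of them changed by at least 1 on the log2 scale, 43 upward and 107 downward. By the cut-offs of the study, which require a change of 0.32 or more on the log2 scale and a nominal p under 0.05, 509 genes were higher (2.38%) and 1328 were lower (6.21%). In 121 genes (0.566%) all 8 DMI libraries lay above all 8 saline libraries, and in 81 genes (0.379%) they all lay below. The median log2 fold change over all genes tested was -0.01.

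**Figure D1:**
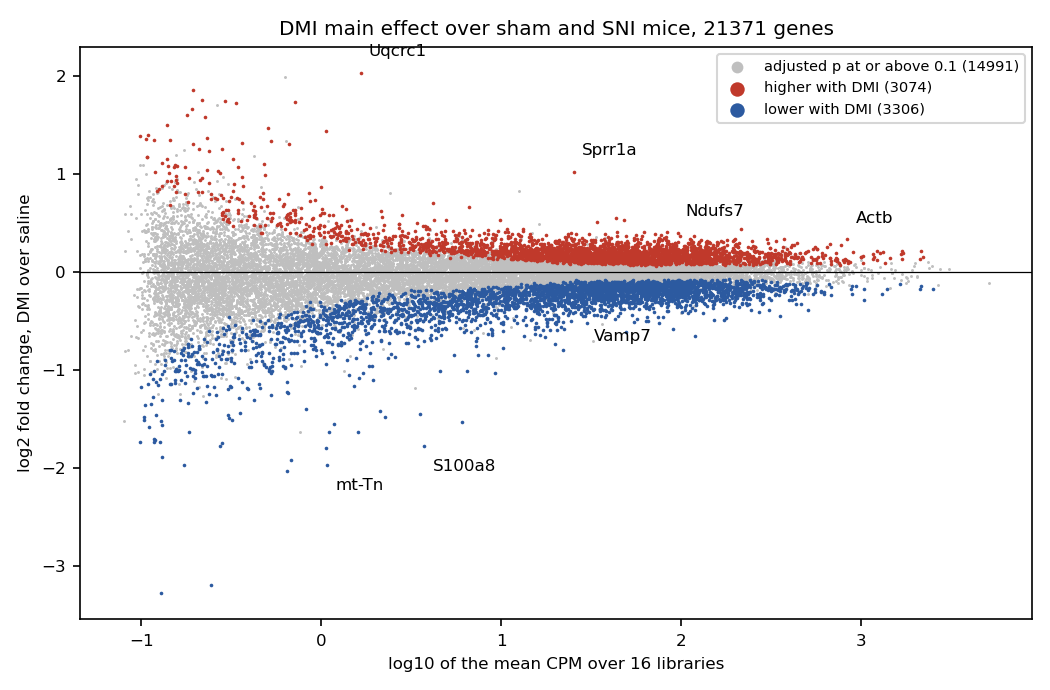
Each point is a gene, placed by the log10 of its mean CPM over 16 libraries (x axis) and its log2 fold change of DMI over saline (y axis), red where higher and blue where lower with an adjusted p under 0.1. The 3074 higher and 3306 lower genes form a narrow band around 0 among well expressed genes, and changes of 1 or more, such as those of Uqcrc1 upward and S100a8 and mt-Tn downward, are mostly in genes of low count.

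The nuclear genes of the respiratory chain were higher with DMI almost throughout. Complex I takes electrons from NADH. Of its 35 tested nuclear genes 33 rose (94.3%, against 14.4% of all genes) and none fell, with a median log2 fold change of 0.21. Ndufs7, a core subunit on chromosome 10 (80249121 to 80256794, plus strand, GRCm38), ranged from 67.5 to 95.1 CPM with a median of 81.7 in saline libraries and from 99 to 117 with a median of 112 in DMI libraries. No DMI library of Ndufs7 overlapped a saline library, and the log2 fold change was 0.40 with an SE of 0.05 and an adjusted p of 0.000425, or 32.3% higher. It was 0.50 in sham mice and 0.33 in SNI mice. The accessory subunit Ndufb10 also showed no overlap, at 88.2 to 116 CPM with saline and 118 to 145 CPM with DMI, and rose by 29.2% (adjusted p = 0.000427). Ndufb7, another accessory subunit, rose by 28.9% (adjusted p = 0.000496), although its ranges met at 92.7 to 101 CPM.

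Complexes III to V pass electrons to oxygen and make ATP. Of their 38 tested nuclear genes 34 rose (89.5%, against 14.4% of all genes) and 1 fell, with a median of 0.24. Atp5g2 and Atp5e, subunits of ATP synthase, rose by 31.4% and 27.1%, and Cox4i1 of cytochrome c oxidase rose by 23.4% (adjusted p = 0.000496, 0.000903 and 0.000606 in edgeR's test). Uqcrc1, a core subunit of complex III, had the highest fold change of the named genes, at 2.03 on the log2 scale with an SE of 0.53 and an adjusted p of 0.00988. That value rested on Sham-DMI replicate 2 at 11 CPM and SNI-DMI replicate 1 at 4.58 CPM, while the other 6 DMI libraries lay between 0.717 and 1.5 CPM and the saline libraries between 0.466 and 0.785 CPM. The log2 fold change of Uqcrc1 was 1.19 when Sham-DMI replicate 2 was left out (adjusted p = 0.0205) and 1.68 when SNI-DMI replicate 1 was (adjusted p = 0.0298).

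The 13 protein genes encoded by the mitochondrial genome went the other way in the additive model. All 13 had negative values, 7 fell by the test (53.8%, against 15.5% of all genes) and none rose, with a median of -0.17. Once GC content and length trends were removed, as described below, the median was 0.01, with 2 lower and 1 higher. mt-Nd4l fell by 0.43 on the log2 scale, from 3.35 to 4.21 CPM in saline libraries to 2.11 to 3.42 CPM in DMI libraries, and mt-Co3 fell by 0.41 (adjusted p = 0.00463 and 0.00594). Both overlap a neighbouring mitochondrial gene on the same strand, mt-Nd4 and mt-Atp6, so reads may have been shared. The share of counts on these 13 genes was 1.02% ± 0.0257 (SD, n = 8) with saline and 0.941% ± 0.112 with DMI, a difference of -0.0832 percentage points that did not pass an exact two-sided permutation test within surgeries (p = 0.0604, adjusted p = 0.101).

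Ribosomal genes followed the same direction as the nuclear respiratory genes. Among 81 tested cytosolic ribosomal protein genes, 74 rose (91.4%, against 14.4% of all genes) and none fell, with a median of 0.23. Rpl28 ranged from 71.4 to 93.8 CPM with saline and from 87.3 to 111 CPM with DMI (23.2% higher, adjusted p = 0.000541), and Rps15 and Rpl8 rose by 24.7% and 19.8%. These genes have many processed copies, so how reads were split among copies is uncertain. Of 75 tested mitochondrial ribosomal protein genes, 61 rose (81.3%, against the same 14.4%) and none fell, with a median of 0.18. In Mrpl4 all DMI libraries (45.2 to 51 CPM) exceeded all saline libraries (35.4 to 44.9 CPM), and Mrpl52 rose by 31.3%, with adjusted p = 0.000446 for each. Proteasome subunits rose in 21 of 38 cases (55.3%, against 14.4%) and fell in none, with a median of 0.13. Psmb5, a catalytic subunit, rose by 23.4% (adjusted p = 0.000588).

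The cytoskeleton list held 24 tested actin and tubulin genes. Of these 20 rose (83.3%, against 14.4% of all genes) and none fell, with a median of 0.16. Actb, or beta-actin, on chromosome 5 (142903115 to 142906754, minus strand), ranged from 687 to 832 CPM with a median of 741 in saline libraries and from 870 to 1000 CPM with a median of 957 in DMI libraries. The libraries of Actb did not overlap, and it rose by 26.5% (log2 fold change 0.34, SE 0.04, adjusted p = 0.000425). Profilin, encoded by Pfn1, rose by 21.7% and the neuronal tubulin Tubb4a by 21% (adjusted p = 0.000446 and 0.000553).

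Other genes at the head of the list of higher genes belonged to no fixed group. Lin37, a subunit of the DREAM repressor of cell cycle genes, rose from 19.1 to 25.3 CPM to 26.6 to 30.1 CPM without overlap. Pttg1, or securin, rose from 28.6 to 38.5 CPM to 39.2 to 48.7 CPM, again without overlap, and Chchd10, of the mitochondrial intermembrane space, did not overlap either. The clathrin adaptor subunit Ap2s1, the selenoprotein Selenow, the proteasome assembly chaperone Psmg3 and the proline-rich gene Prr13 rose by 27%, 26.8%, 31.4% and 26%. The adjusted p of these genes lay between 0.000425 and 0.000487.

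**Figure D2:**
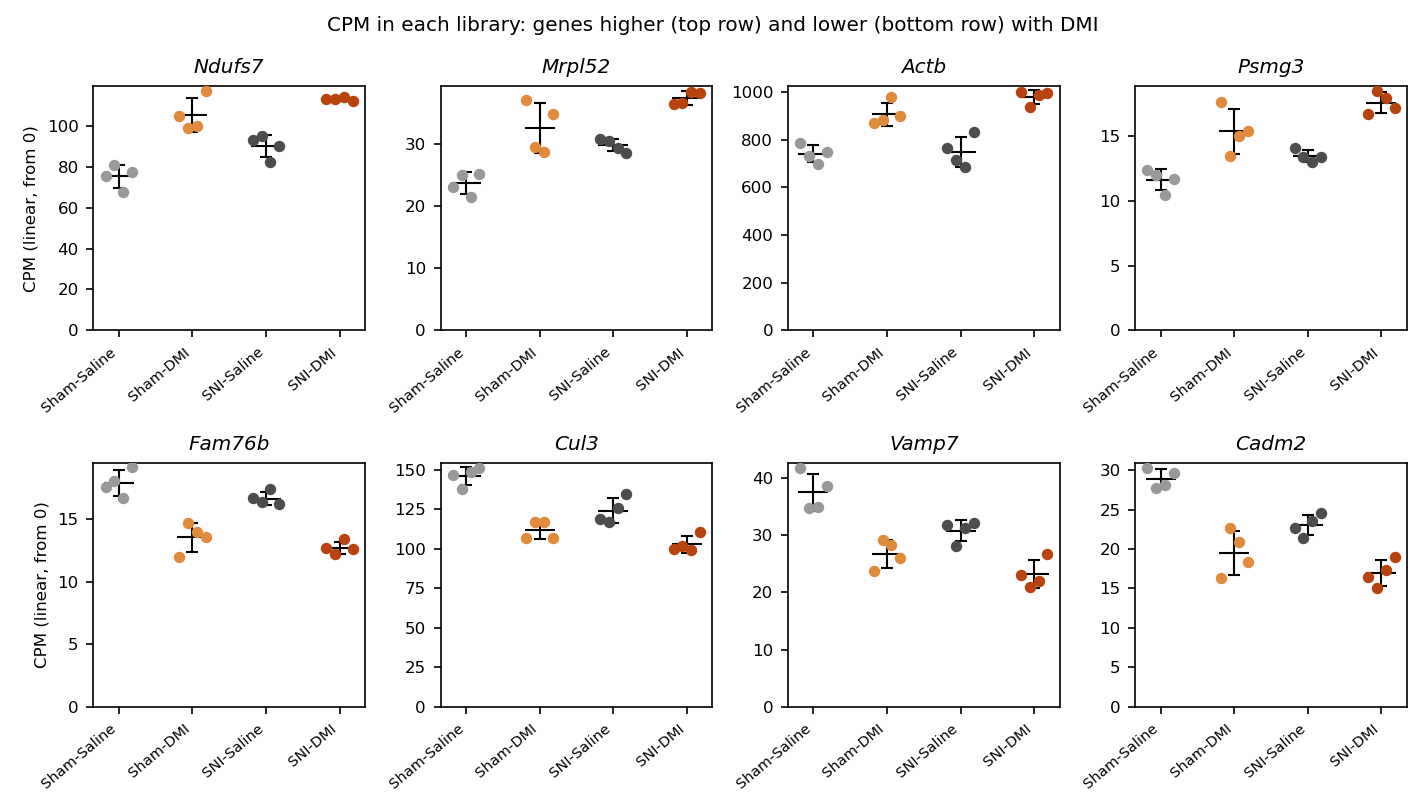
CPM of each library on linear axes that start at 0, with 4 libraries per group as points and the mean ± SD in black. The DMI groups sit above their saline groups in Ndufs7, Mrpl52, Actb and Psmg3 and below them in Fam76b, Cul3, Vamp7 and Cadm2, and the ranges of DMI and saline are fully apart in Ndufs7, Actb and Fam76b.

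The 12 lower genes with the smallest p had diverse roles. Fam76b, a nuclear protein gene, ranged from 16.2 to 19.2 CPM with saline and from 12 to 14.7 CPM with DMI, without overlap, and its change of -0.39 had an SE of 0.05 and an adjusted p of 0.000425. Dek, a chromatin protein, also fell without overlap, from 22.7 to 26.4 CPM to 18.3 to 21.4 CPM. The scaffold of a ubiquitin ligase Cul3, the iron regulatory protein Ireb2 and the synaptic adhesion protein Cadm2 fell by 0.33, 0.36 and 0.50 on the log2 scale (adjusted p = 0.000425 for each). Vamp7, a vesicle SNARE, ranged from 28.1 to 41.6 CPM with saline and from 21 to 29.2 CPM with DMI, and fell by 0.45 (adjusted p = 0.000437). Sh3bgrl, Gmfb, Mctp1, Ccdc50 and Dram2 completed the 12 together with the zinc finger gene Zfp758, which fell from a median of 11.3 to 6.21 CPM, a change of -0.85 with an SE of 0.11 and an adjusted p of 0.000446.

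Zfp758 belonged to the list of Zfp zinc finger genes, mostly DNA-binding repressors. Of 339 tested, 111 fell (32.7%, against 15.5% of all genes) and 26 rose (7.67%, against 14.4%), with a median of -0.08. Zfp942 fell by 0.77 and Zfp91 by 0.24 on the log2 scale (adjusted p = 0.000446 and 0.000496), and Zfp91 overlaps Cntf on the same strand. With GC content and length trends removed, 36 of the 339 fell and 24 rose, and the median was -0.01. Of all genes, 8.13% fell and 10.5% rose in that fit.

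That correction bears on the whole effect. A curve of each library's deviation on the GC content and the exonic length of genes was fitted and used as an offset, because the change with DMI moved with both features. In the lowest of 5 equal bins of GC content the median log2 fold change was -0.17 and 40% fell, while in the highest bin it was 0.07 and 25.5% rose. The bin of shortest exonic length had a median of 0.09 and the bin of longest a median of -0.10. The slope on GC content was -0.0625 ± 0.0629 log2 units per 10 percentage points (SD, n = 8) in saline libraries and 0.0625 ± 0.0692 in DMI libraries, with p = 0.000408 in an exact permutation test within surgeries, the smallest it can give (adjusted p = 0.00204 over 10 quantities). The slopes of single libraries overlapped, from -0.176 to 0.0479 with saline and from -0.0294 to 0.159 with DMI. The share of pairs with several alignments was 6.06% ± 0.183 with saline and 6.27% ± 0.0896 with DMI (exact permutation p = 0.00367, adjusted p = 0.00918), and the share assigned to more than 1 gene was 3.21% ± 0.105 and 3.36% ± 0.0699 (exact permutation p = 0.000816, adjusted p = 0.00272).

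**Figure D3:**
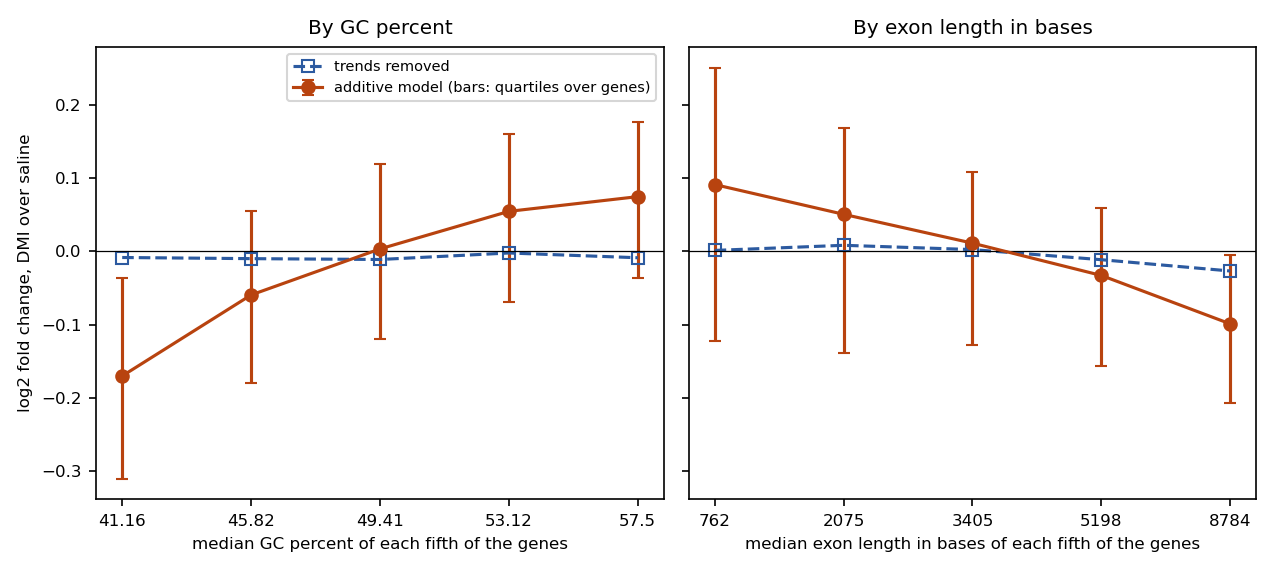
Median log2 fold change of DMI over saline (y axis) in 5 equal bins of genes by GC percent (left) and exonic length in bases (right), with quartiles over genes as bars, and the medians after the trends were removed as open squares. The median rises from -0.17 to 0.07 with GC content and falls from 0.09 to -0.10 with length. After removal it lies within 0.03 of 0 in every bin, which follows from fitting the trends on these same features.

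After the trends were removed, 2251 genes were higher (10.5%) and 1738 lower (8.13%). Of these, 3031 were called in the same direction in both fits, 1594 higher and 1437 lower, and 38 were called in opposite directions. Of the 33 complex I genes that rose, 26 were also called higher with trends removed, as were 25 of 34 in complexes III to V, 64 of 74 cytosolic and 43 of 61 mitochondrial ribosomal protein genes, 17 of 21 proteasome genes and 11 of 20 cytoskeleton genes. Of the 111 zinc finger genes that fell, 36 were also called lower. The mitochondrially encoded genes had 2 lower and 1 higher, with a median of 0.01. Among the leading genes, Ndufs7 kept a log2 fold change of 0.29, Actb 0.29 and Pttg1 0.37 (adjusted p = 0.002, 0.00139 and 0.000627), Cul3 kept -0.10 (adjusted p = 0.0444), and Dram2 lost its call at -0.04 (adjusted p = 0.572). Vamp7 lies on an unplaced scaffold and received no correction.

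**Figure D4:**
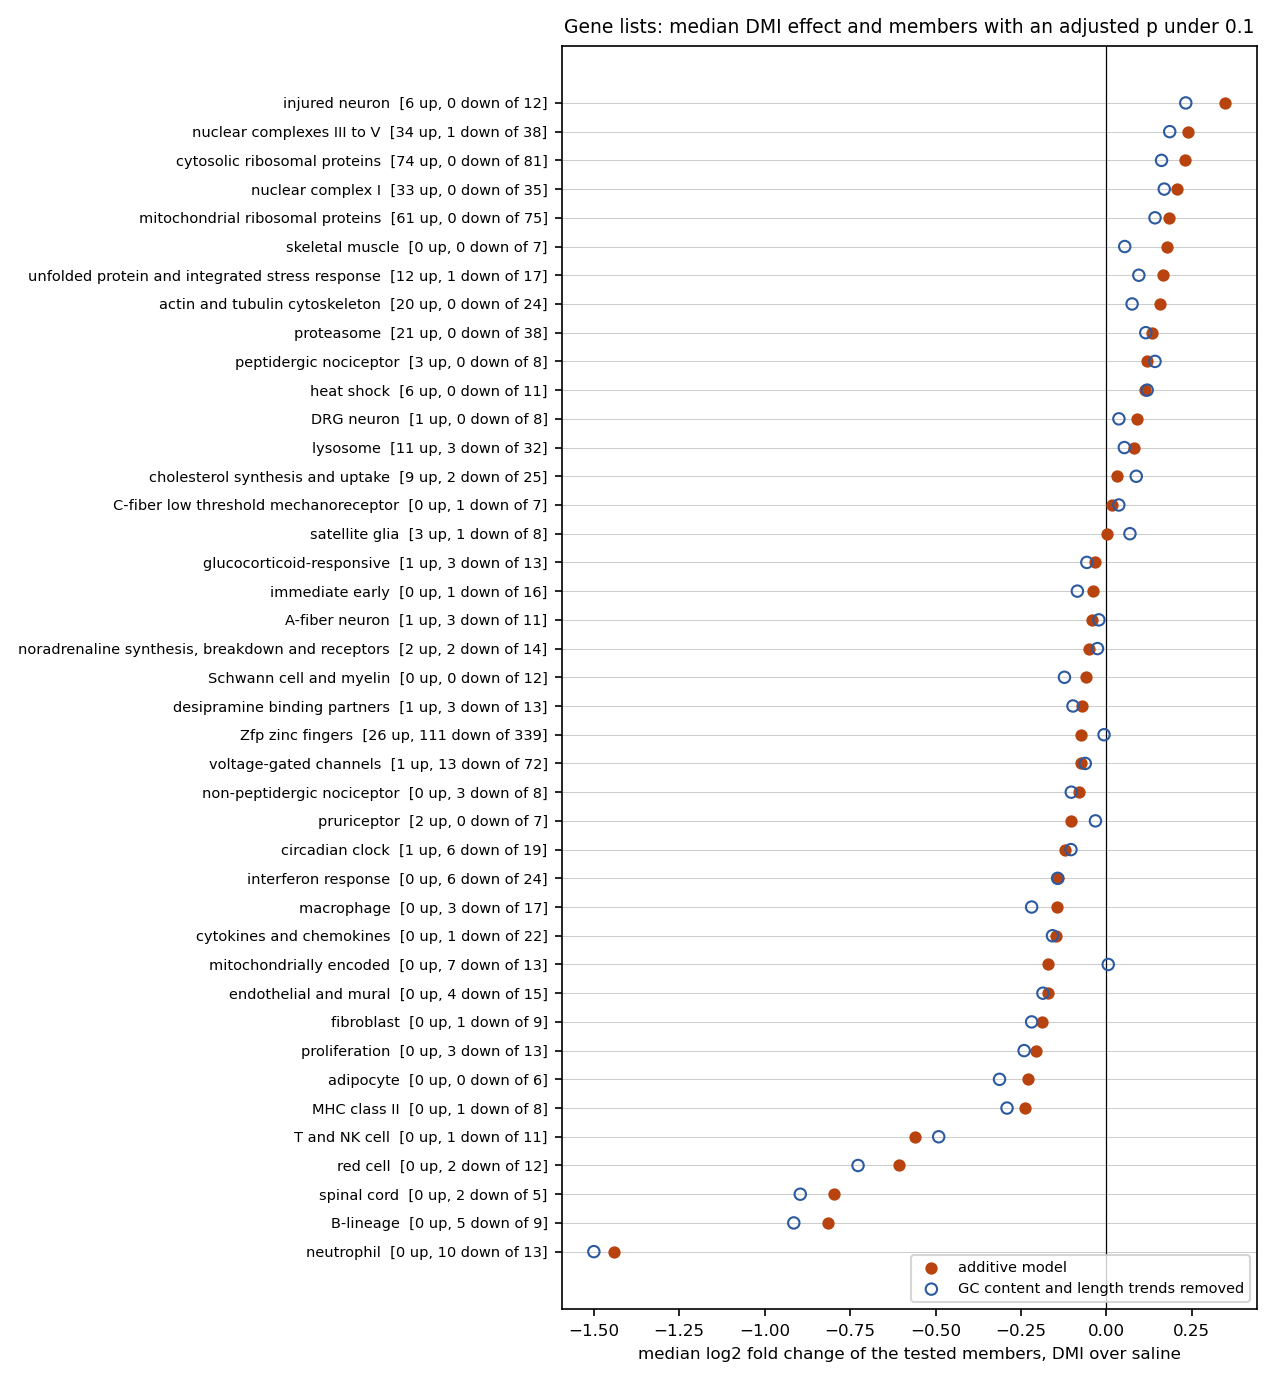
Median log2 fold change of DMI over saline (x axis) of the tested members of each gene list, filled for the additive model and open with GC content and length trends removed, with the members higher and lower at an adjusted p under 0.1 in brackets. Nuclear respiratory and ribosomal lists lie between 0.182 and 0.238 in the additive model and between 0.142 and 0.185 with trends removed. The neutrophil list lies lowest, at -1.44 and -1.50.

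Transfer RNAs of the mitochondrial genome gave some of the largest decreases. The genes mt-Ta, mt-Tn, mt-Tc and mt-Ty, for alanine, asparagine, cysteine and tyrosine, lie next to each other on the light strand of the mitochondrial genome between positions 5018 and 5326. This cluster flanks the origin of light-strand replication, and the tRNAs are cut from long precursors. Their sequences are shown because the 4 neighbours moved together, with the anticodon in capitals, as DNA letters of the RNA strand from the GENCODE M21 transcripts.
mt-Ta: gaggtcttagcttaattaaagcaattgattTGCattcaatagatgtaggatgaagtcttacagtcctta
mt-Tn: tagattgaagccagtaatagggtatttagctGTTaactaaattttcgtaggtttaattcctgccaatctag
mt-Tc: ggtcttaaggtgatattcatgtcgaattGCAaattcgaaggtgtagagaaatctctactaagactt
mt-Ty: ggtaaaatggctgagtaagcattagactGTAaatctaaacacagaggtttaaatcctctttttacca

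The mt-Tn gene (chromosome M, 5089 to 5159, minus strand) was read at 2.14, 2.22, 2.07 and 3.32 CPM in Sham-Saline and at 0.815, 0.652, 0.996 and 1.71 CPM in SNI-Saline. In Sham-DMI it was read at 0.29, 0.837, 0.599 and 0.236 CPM, and in SNI-DMI at 0.192, 0.214, 0.33 and 0.648 CPM. Each DMI library of mt-Tn thus lay below each library of the saline group with the same surgery. The change was -1.97 with an SE of 0.29 and an adjusted p of 0.000548, at -2.29 in sham and -1.58 in SNI mice. The neighbours mt-Tc, mt-Ta and mt-Ty fell by 1.63, 1.55 and 1.24 (adjusted p = 0.000717, 0.000867 and 0.000565), and mt-Ty did not overlap at 0.594 to 1.3 CPM with saline and 0.209 to 0.495 CPM with DMI. With the trends removed the same 4 genes had log2 fold changes of -1.69, -1.43, -1.25 and -0.96 for mt-Tn, mt-Tc, mt-Ta and mt-Ty.

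Of 12 mitochondrial tRNA genes tested, 8 lay on the light strand and 6 of these fell, while none of the 4 on the heavy strand was called. The further light-strand decreases were those of mt-Tq (-0.45, adjusted p = 0.0422) and mt-Te (-0.34, adjusted p = 0.0186), which had -0.26 and -0.06 with trends removed and were then not called (adjusted p = 0.19 and 0.75), and mt-Ts1 and mt-Tp had values of -0.01 and -0.07 (adjusted p = 0.983 and 0.451). A kit that selects polyadenylated RNA captures tRNAs poorly, and the mean level of mt-Tn was 1.08 CPM. The genes mt-Tn, mt-Tc and mt-Ta were named for the size of their change, and the other mitochondrial tRNA genes after their values were seen.

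Clock genes fell in part. The clock runs on Arntl and Clock, which drive the Per, Cry and Nr1d genes and the output factor Dbp through E-boxes, while Nfil3 opposes Dbp at D-boxes and Nr1d and Rora proteins compete at another element. Of 19 tested genes, 6 fell (31.6%, against 15.5% of all genes) and 1 rose, with a median of -0.12. Nr1d1 ranged from 17.7 to 35.8 CPM with saline, with a median of 26.4, and from 17.6 to 23.2 CPM with DMI, with a median of 21.3. Thus the lowest libraries were alike and the saline libraries reached higher, and the change of Nr1d1 was -0.39 with an SE of 0.11 and an adjusted p of 0.018. Dbp fell by 0.52, from 8.56 to 24 CPM with saline to 6.8 to 12.7 CPM with DMI (adjusted p = 0.0345). Per3, Nr1d2, Rora and Clock fell by 0.38, 0.35, 0.35 and 0.28 (adjusted p = 0.0222, 0.00187, 0.00196 and 0.00145). Nfil3 rose by 19% (adjusted p = 0.0612), and lost that call in 4 of the fits that left out 1 library, with an adjusted p of up to 0.136 without SNI-Saline replicate 3.

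With the trends removed 7 clock genes fell and none rose. Nr1d1 then had -0.47, Dbp -0.60, Per3 -0.39 and Nr1d2 -0.22 (adjusted p = 0.0129, 0.0326, 0.0347 and 0.0204), Clock lost the call at -0.07 (adjusted p = 0.11), and Ciart, a repressor within the clock, gained it at -0.35 (adjusted p = 0.0819), from -0.28 before (adjusted p = 0.119). Ciart stood apart in SNI-Saline replicates 3 and 4, at 6.7 and 5.93 CPM against 3.57 to 4.02 CPM in the other saline and 3.01 to 3.97 CPM in the DMI libraries, and its change was -0.02 in sham and -0.52 in SNI mice. The same libraries were the highest for Dbp, at 24 and 20.9 CPM. The hour of collection is not given in the sources used here. Per3 overlaps Camta1 on the same strand, and Nr1d1 overlaps Thra and Dbp overlaps Sphk2 on the other. Nr1d1, Per3, Dbp, Nfil3 and Ciart were named after their values were seen.

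The 250 bases before the start sites were read from RefSeq promoters (GRCm38.p6) for 16 of the 19 genes, on both strands. An E-box (CACGTG) was found in 5 of the 16, a D-box (TTATGNAA) in 2 and the AGGTCA element in 4. The shares of all 32851 promoters with a match were 6.02%, 3.07% and 14%. Those shares are per promoter, whereas the counts are per gene over 21 windows, so the 2 are not directly comparable. The windows of Dbp, Nr1d1 and Rora, which were called lower, held no match of any kind. Below are Ciart with 3 E-boxes (chr3:95882229-95882478, minus strand), Per3 with 2 D-boxes (chr4:151044666-151044915, minus strand) and Nr1d2 with 1 AGGTCA element (chr14:18239107-18239356, minus strand). They were chosen as 1 example of each motif among genes with negative values, while windows of Clock, Per1, Tef and Bhlhe41 also held matches, and the capitals mark the matches.
Ciart: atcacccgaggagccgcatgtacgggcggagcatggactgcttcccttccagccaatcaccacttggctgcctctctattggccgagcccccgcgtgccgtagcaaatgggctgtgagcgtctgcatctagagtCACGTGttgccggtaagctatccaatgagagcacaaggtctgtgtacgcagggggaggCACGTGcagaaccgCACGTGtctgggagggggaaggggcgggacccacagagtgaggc
Per3: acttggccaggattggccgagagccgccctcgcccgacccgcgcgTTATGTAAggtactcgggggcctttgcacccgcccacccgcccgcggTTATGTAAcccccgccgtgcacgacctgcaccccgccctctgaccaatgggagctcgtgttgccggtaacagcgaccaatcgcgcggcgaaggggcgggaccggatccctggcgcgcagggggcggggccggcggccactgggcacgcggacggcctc
Nr1d2: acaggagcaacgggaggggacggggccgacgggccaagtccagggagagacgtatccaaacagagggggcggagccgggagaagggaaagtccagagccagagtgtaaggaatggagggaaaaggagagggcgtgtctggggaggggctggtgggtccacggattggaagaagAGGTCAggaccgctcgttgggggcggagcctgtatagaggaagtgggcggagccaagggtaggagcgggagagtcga

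**Figure D5:**
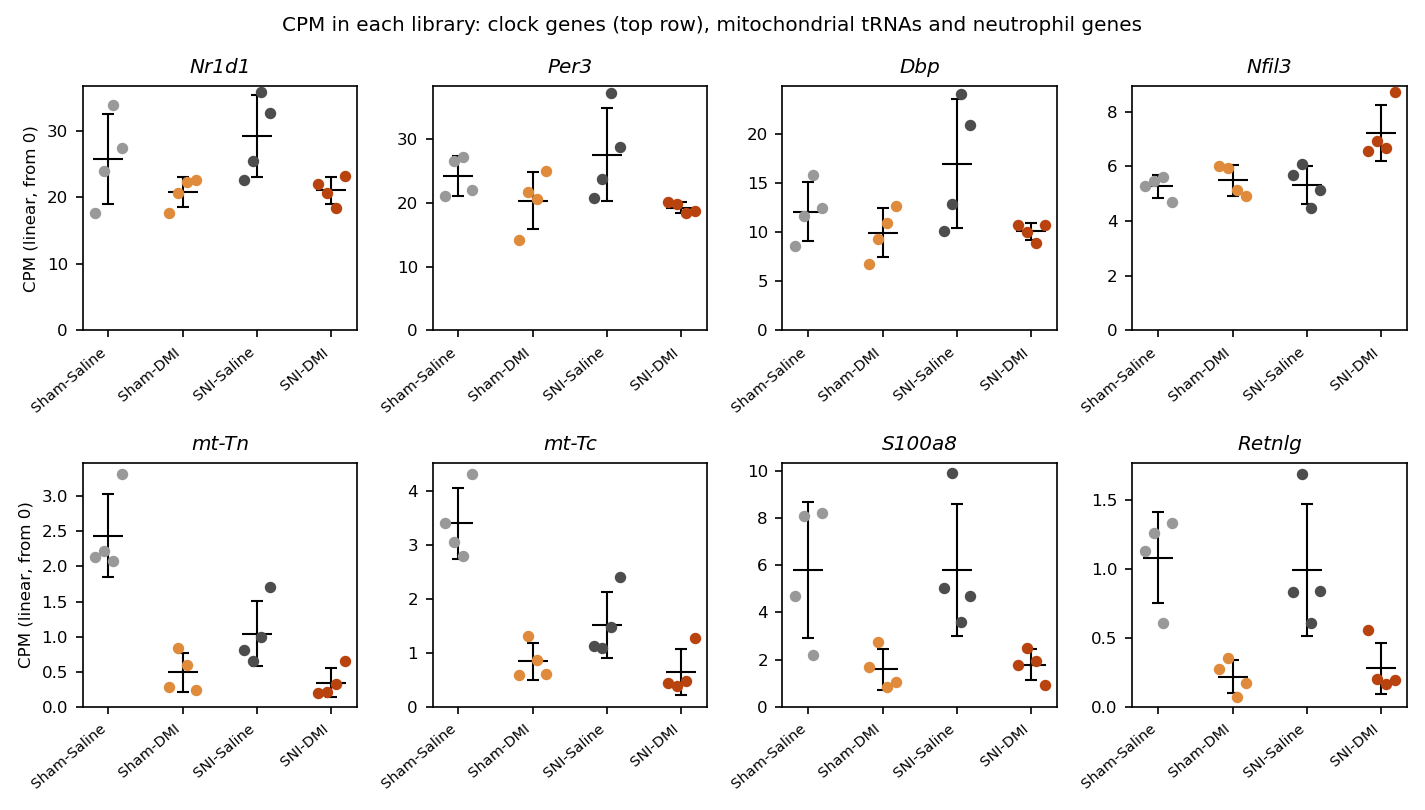
CPM of each library on linear axes that start at 0, with 4 libraries per group as points and the mean ± SD in black. Saline libraries of Nr1d1, Per3 and Dbp reach higher than DMI libraries, and mt-Tn and mt-Tc are highest in Sham-Saline and lowest in SNI-DMI, as their means of 2.44 and 0.346 CPM for mt-Tn show.

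Neutrophil and B-cell genes were called lower with DMI more often than the 15.5% of all genes. Of 13 tested neutrophil genes, which encode granule and secreted antimicrobial proteins of these cells, 10 fell and none rose, with a median log2 fold change of -1.44. S100a8, a subunit of calprotectin, on chromosome 3 (90668978 to 90670035, plus strand), was read at 4.71, 8.07, 2.21 and 8.2 CPM in Sham-Saline and at 5.05, 9.89, 3.58 and 4.68 CPM in SNI-Saline. In Sham-DMI it was read at 1.69, 2.76, 0.824 and 1.07 CPM, and in SNI-DMI at 1.79, 2.48, 1.95 and 0.934 CPM. The saline and DMI ranges of S100a8 met only at 2.21 to 2.76 CPM, and it fell by 1.77 (SE 0.29, adjusted p = 0.000796). Retnlg did not overlap, at 0.608 to 1.69 CPM and 0.0749 to 0.558 CPM, and fell by 2.03. Ngp and Chil3 fell by 1.44 and 1.40 (adjusted p = 0.00249 and 0.00651). The summed level of the neutrophil list was 13.8 to 59 CPM with saline and 6.32 to 22.5 CPM with DMI, 10 of 13 were called lower with trends removed, and the medians were -1.49 in sham and -1.38 in SNI mice. In bulk tissue fewer cells of a type and less RNA per cell cannot be told apart.

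In the B-cell list 5 of 9 tested genes fell and none rose, with a median of -0.82. The summed level of the B-cell list overlapped, at 45 to 54.7 CPM with saline and 32.5 to 51.3 CPM with DMI. Blk, a kinase of the B-cell receptor pathway, did not overlap, at 0.122 to 0.452 CPM with saline and 0 to 0.11 CPM with DMI. Its change was -1.56 with an SE of 0.46 and an adjusted p of 0.0203. The lowest saline and the highest DMI library of Blk were close, at 0.122 and 0.11 CPM, a level at which few reads were counted. Pax5, a transcription factor of B-cell identity, fell by 0.82 (adjusted p = 0.0174). The medians of the list differed in size, at -1.26 in sham mice and -0.21 in SNI mice, and no interaction passed the test. Red cell genes fell in 2 of 12 cases (16.7%, against 15.5% of all genes), and in 6 with replicate number added to the model as a block. Negative values were found in 10 of the 12, with a median of -0.61, and -0.73 with trends removed. Their summed level was 36.4 to 133 CPM with saline and 28.1 to 114 CPM with DMI. Slc4a1, the anion exchanger of the red cell membrane, lost its call in 9 of the 16 fits that left out 1 library. Its adjusted p reached 0.192 without SNI-Saline replicate 2. The part of circulating blood in the results for neutrophil and B-cell genes was not tested.

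Macrophage genes fell in 3 of 17 cases (17.6%, against 15.5% of all genes). Cd163 and Mrc1, scavenger receptors of perivascular macrophages, fell by 0.33 each (adjusted p = 0.0192 and 0.0268), though Mrc1 was not called with trends removed (-0.23, adjusted p = 0.165), and Itgam by 0.46 (adjusted p = 0.0529, and up to 0.113 without Sham-DMI replicate 2). The complement genes C1qa, C1qb and C1qc had values of -0.04, -0.09 and -0.04 and were not called. Of 22 tested cytokine and chemokine genes, only Ccl6 passed the test, with -0.43 (adjusted p = 0.0653, and 0.165 without SNI-Saline replicate 2), 18 of the 22 had negative values, and none passed with the trends removed. Interferon response genes fell in 6 of 24 cases (25%, against 15.5% of all genes) and rose in none, with a median of -0.14. Ifih1, a sensor of viral RNA, and Parp14 fell by 0.45 and 0.35 (adjusted p = 0.0132 and 0.0167). The list had a median of -0.25 in sham mice and 0.00 in SNI mice. T and NK cell genes had 1 of 11 lower (9.09%), Cd4, and MHC class II genes had 1 of 8, the transactivator Ciita. Without SNI-Saline replicate 2 neither passed the test (adjusted p = 0.113 and 0.166).

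Chaperones rose in a moderate way. The unfolded protein and integrated stress responses adjust folding capacity in the endoplasmic reticulum and protein synthesis. In their list 12 of 17 genes rose (70.6%, against 14.4% of all genes) and 1 fell, with a median of 0.17. Xbp1 did not overlap, at 69.1 to 75.4 CPM with saline and 77.1 to 83.9 CPM with DMI, and rose by 12.3% (adjusted p = 0.00112). Creld2, a secreted chaperone, rose by 25.9% (adjusted p = 0.000725), while the co-chaperone Dnajb9 fell by 0.27 on the log2 scale without overlap (adjusted p = 0.000496). With trends removed 8 rose and 1 fell. Among 11 heat shock genes 6 rose (54.5%, against 14.4% of all genes) and none fell. With trends removed 6 again rose and none fell, and 5 were called higher in both fits. Hsp90ab1 rose by 16% without overlap, from 1860 to 2090 CPM to 2120 to 2450 CPM (adjusted p = 0.00113), and Hspb1 and Hspa8 rose by 23.7% and 11.4% (adjusted p = 0.000888 and 0.0193).

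The lysosome and cholesterol lists, chosen for the chemistry of the drug, moved less. Of 32 lysosomal genes 11 rose (34.4%, against 14.4% of all genes) and 3 fell (9.38%, against 15.5%), with a median of 0.08. Hexa, a hexosaminidase subunit, and Atp6ap1, of the proton pump, rose by 17.2% and 10.2% (adjusted p = 0.00082 and 0.00369), and Lamp2, a membrane protein, fell by 0.25 on the log2 scale (adjusted p = 0.00132) but had 0.00 with the trends removed (adjusted p = 0.956). Then 6 lysosomal genes rose and none fell. Of 25 genes of cholesterol synthesis and uptake 9 rose (36%, against 14.4% of all genes) and 2 fell (8%, against 15.5%). With the trends removed 11 of these genes rose and none fell. Fdft1, or squalene synthase, did not overlap, at 283 to 338 CPM and 346 to 381 CPM, and rose by 14.3% (adjusted p = 0.00135), and Mvd and Pmvk of the mevalonate pathway rose by 21.6% and 17.6%.

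Of 13 tested genes for proteins that desipramine binds, 1 rose and 3 fell, or 30.8% called against 29.9% of all genes. Smpd1, or acid sphingomyelinase, rose by 7.77% (adjusted p = 0.0155), from 89.1 to 103 CPM with saline to 97.1 to 112 CPM with DMI. The receptor genes Htr2a, Adra1a and Htr2c fell by 0.26, 0.64 and 0.85 (adjusted p = 0.0464, 0.0732 and 0.0631). The call was lost in 3 fits for Htr2a, 9 for Adra1a and 7 for Htr2c among the 16 that left out 1 library, with an adjusted p of up to 0.114, 0.154 and 0.127, and none of the 13 passed with the trends removed. Htr2c had -0.21 in sham mice and -1.57 in SNI mice, at 0.0459 to 0.458 CPM over all libraries. The transporter genes Slc6a2 and Slc6a4 had values of -0.47 and 0.05 (adjusted p = 0.48 and 0.932). Hrh1 and the muscarinic receptors Chrm1 to Chrm4 had values between -0.17 and 0.05, with an adjusted p of at least 0.227, and Adra1b and Adra1d had 0.11 and -0.07.

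Among 14 genes of noradrenaline synthesis, breakdown and receptors, 2 rose and 2 fell, or 28.6% called against 29.9% of all genes. Th, tyrosine hydroxylase, which in the DRG marks C-fiber low threshold mechanoreceptors, ranged from 115 to 169 CPM with a median of 140 in saline libraries and from 131 to 212 CPM with a median of 173 in DMI libraries. The ranges of Th overlapped widely, and it rose by 24% (0.31 on the log2 scale with an SE of 0.09, adjusted p = 0.02), with 0.23 and an adjusted p of 0.109 once the trends were removed. The vesicular transporter Slc18a2 fell by 0.46 (adjusted p = 0.00929, and 0.0219 with trends removed). Maoa fell by 0.16 (adjusted p = 0.00413), and had 0.00 with trends removed (adjusted p = 0.935).

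Markers of the sensory neuron classes were called in 1 of 8 to 3 of 8 cases per class and in 4 of 11 for A-fiber neurons, against 29.9% of all genes. Prph, the peripherin of small neurons, was the 1 called gene of 8 pan-DRG genes (13.8% higher, adjusted p = 0.0107), and was not called with trends removed. Of 8 peptidergic nociceptor genes, Tac1, Calcb and Calca rose by 15.4%, 8.36% and 8.76% (adjusted p = 0.0675, 0.0464 and 0.0941), which encode substance P and the calcitonin gene-related peptides, and Calcb and Calca were not called with trends removed (adjusted p = 0.31 and 0.326). Of 8 non-peptidergic genes 3 fell, among them the purinergic receptor P2rx3 and the semaphorin receptor Plxnc1, by 0.16 each (adjusted p = 0.0405 and 0.0697). Among 11 A-fiber genes Pvalb, of proprioceptors, rose by 28.2% and Ntrk3, their neurotrophin receptor, fell by 0.44 (adjusted p = 0.0105 and 0.00396). Calls of Tac1, Calca, P2rx3 and Plxnc1 were lost in 3, 9, 1 and 12 of the 16 fits that left out 1 library, with an adjusted p of up to 0.145, 0.188, 0.126 and 0.199.

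Voltage-gated channels, which set excitability, fell in 13 of 72 cases (18.1%, against 15.5% of all genes) and rose in 1, with a median of -0.08, and with trends removed 11 fell and none rose. Kcna1, a potassium channel of axons, ranged from 176 to 252 CPM with a median of 203 in saline libraries and from 110 to 207 CPM with a median of 145 in DMI libraries. In 6 of 8 DMI libraries Kcna1 lay below the saline range, and it fell by 0.47 (SE 0.11, adjusted p = 0.00476), with -0.47 once the trends were removed (adjusted p = 0.00879). Kcnh7 fell by 0.49, and by 0.24 with trends removed (adjusted p = 0.00123 and 0.00802). Cacna2d1, the subunit bound by gabapentinoids, fell by 0.38 (adjusted p = 0.00413), with -0.18 and an adjusted p of 0.101 once they were removed.

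Genes of injured neurons rose in 6 of 12 cases (50%, against 14.4% of all genes), with a median of 0.35. With trends removed 2 of 12 rose, against 10.5% of all genes. Gal, the neuropeptide galanin, was 14.6 to 30.7 CPM in Sham-Saline, 25.8 to 37.2 in Sham-DMI, 24.1 to 43.7 in SNI-Saline and 44.5 to 57.9 in SNI-DMI. The SNI groups of Gal did not overlap, and it rose by 42.7% (adjusted p = 0.0124). Sprr1a and Cckbr were 0.619 to 2.06 and 0.604 to 0.643 CPM in Sham-Saline and 1.67 to 12.2 and 0.674 to 2.74 CPM in Sham-DMI. Sham-DMI replicates 2 and 4 were the highest, at 12.2 and 9.19 CPM for Sprr1a and 2.18 and 2.74 CPM for Cckbr. Sham-DMI replicates 1 and 3 had 1.81 and 1.67 CPM of Sprr1a, within the Sham-Saline range, and 1.06 and 0.674 CPM of Cckbr. In SNI mice both genes were far higher under both agents, at means of 43.9 and 50.2 CPM for Sprr1a and 6.74 and 7.71 CPM for Cckbr. The DMI effect was 2.45 in sham and 0.20 in SNI mice for Sprr1a and 1.46 and 0.19 for Cckbr, and neither interaction passed the test across all genes (adjusted p = 0.619 for both). The call of Sprr1a (adjusted p = 0.0757) was lost in 7 of the 16 fits that left out 1 library, with up to 0.139 without Sham-Saline replicate 3.

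Of 8 satellite glia genes 3 rose and 1 fell, or 50% called against 29.9% of all genes. Values were positive in 4 of the 8 and negative in 4, with a median of 0.00. Fabp7, a fatty acid binding protein of these cells, ranged from 179 to 260 CPM with a median of 220 in saline libraries and from 240 to 298 CPM with a median of 285 in DMI libraries. Fabp7 rose by 25.3% (adjusted p = 0.00265), Glul, glutamine synthetase, by 7.73% (adjusted p = 0.0182), and Apoe by 0.19 on the log2 scale (adjusted p = 0.0243), while the cadherin Cdh19 fell by 0.45 (adjusted p = 0.00395). None of 12 Schwann cell and myelin genes was called, and their median was -0.06. All 15 endothelial and mural genes had negative values, and 26.7% were called lower, against 15.5% of all genes. Abcc9, Tek, Notch3 and Myh11 fell by 0.43, 0.30, 0.25 and 0.26 (adjusted p = 0.00625, 0.0172, 0.0571 and 0.0977). The call of Notch3 was lost in 4 fits that left out 1 library (adjusted p of up to 0.169 without Sham-Saline replicate 3). Lum was the 1 of 9 fibroblast genes to fall (-0.28, adjusted p = 0.0897, and 0.201 without SNI-Saline replicate 3). Of the 5 tested spinal cord genes Mobp and Gad1 fell by 1.02 and 0.54 (adjusted p = 0.0757 and 0.0636), and lost the call in 9 and 6 of the fits without 1 library (adjusted p of up to 0.146 and 0.162).

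Among glucocorticoid-responsive genes, Klf9 fell by 0.32, from 64.9 to 78.2 CPM with saline to 51.6 to 65.5 CPM with DMI (adjusted p = 0.000496, and 0.00135 with trends removed), and the metallothionein Mt1 rose by 33.5% (adjusted p = 0.000588). In all 1 of 13 rose and 3 fell, or 30.8% called against 29.9% of all genes. The others that fell were Sgk1 (-0.15, adjusted p = 0.0632) and Hif3a (-0.46, adjusted p = 0.0639). Sgk1 lost its call in 10 of the 16 fits that left out 1 library, with up to 0.173 without Sham-Saline replicate 1. Of 16 immediate early genes only Nr4a2 fell, by 0.35 (adjusted p = 0.0123), and none rose. Of 13 proliferation genes 3 fell (23.1%, against 15.5% of all genes). These were Mki67, Ccnb1 and Ccna2, with -0.38, -0.55 and -0.28 (adjusted p = 0.0242, 0.0732 and 0.0524). Ccnb1 and Ccna2 lost the call in 9 and 4 of the fits without 1 library (adjusted p of up to 0.158 and 0.138).

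Genes that the study names for DMI, all from its comparison of SNI-DMI with SNI-Saline, gave mixed results over both surgeries here. Adamts4, a protease of the matrix, fell by 0.73, from 0.921 to 2.25 CPM with saline to 0.512 to 1.29 CPM with DMI (adjusted p = 0.0125). Il6, a cytokine, had a value of 0.54 in sham mice and -1.48 in SNI mice, and -0.54 over both (adjusted p = 0.359). Its mean was 0.123 ± 0.0926 CPM (SD, n = 4) in Sham-Saline, 0.185 ± 0.0438 in Sham-DMI, 0.358 ± 0.0877 in SNI-Saline and 0.127 ± 0.0541 in SNI-DMI. Gabrg3, Drd2 and Kcnk3 likewise had negative values in sham mice (-0.50, -0.33 and -0.12) and positive ones in SNI mice (0.53, 0.55 and 0.66), with 0.00, 0.11 and 0.26 over both, none called (adjusted p = 0.994, 0.79 and 0.365). The additive model averages such opposite values. Within SNI mice alone, edgeR's test gave a nominal p of 0.00233 for Il6, 0.0303 for Gabrg3, 0.0644 for Drd2 and 0.00284 for Kcnk3.

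The question of whether DMI acted alike in sham and SNI mice was put to the interaction term. No gene of 21371 had an adjusted p under 0.1 (0%), while 1692 had an unadjusted p under 0.05, and DESeq2 called 16. With 4 mice per group, a lack of calls does not show that the effects were alike. Within sham mice 3742 of 20436 genes were called and within SNI mice 1812 of 20452. Of the 6275 genes called over both surgeries and tested in each, 2375 had a nominal p under 0.05 and the same sign in sham and in SNI mice, 1223 higher and 1152 lower. The sham and SNI values share no library, although a call over both favours genes with 1 sign in each. Medians of the lists were larger in sham than in SNI mice for complex I (0.33 and 0.12), complexes III to V (0.35 and 0.14), cytosolic ribosomal proteins (0.33 and 0.15) and the proteasome (0.23 and 0.04), and that difference was not tested over lists.

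Further genes with large fold changes had low counts or neighbours that share reads. Gm42970 rose from a median of 0.501 to 1.6 CPM (log2 fold change 1.44, adjusted p = 0.00224) and lies within Ank2 on the same strand. The pseudogenes Selenok-ps5 and Gm5256 rose by 83.1% and 60.5%, and reads of the parent genes may have been placed there. F830016B08Rik fell by 1.79 (adjusted p = 0.0178). Gatm, which makes the creatine precursor, fell by 1.63 (adjusted p = 0.03), but its saline libraries lay between 0.452 and 0.9 CPM apart from Sham-Saline replicate 1 at 4.31 and SNI-Saline replicate 2 at 5.41 CPM, and without them in turn its value was -0.997 and -0.988, with an adjusted p of 0.14 and 0.124.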

How the data were processed

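Per the labels and the methods of the study, RNA was extracted with TRIzol, stranded mRNA libraries were sequenced as paired reads, and reads were aligned to mm10. The submitters' processing notes list HISAT2, HTSeq and DESeq2. The deposited files hold raw counts per Ensembl gene and library, with 5 lines of unassigned pairs that were left out of library sizes and given as shares. Whether strand was used in counting, and which annotation, is not given in the sources used here. Genes were named, placed and measured with GENCODE M21 (GRCm38), and 147 of 52636 had no symbol there. Depth limits genes near 1 CPM or below.

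In R 4.3.3, genes were filtered with filterByExpr over the 4 groups, scaled by TMM and fitted in edgeR 4.0.16 with surgery and agent, and adjusted p-values follow Benjamini and Hochberg over all genes tested. CPM are on a linear scale, and standard errors were derived from the F statistic. Trends were fitted in mgcv 1.9.3 for 99.8% of tested genes. Alternatives used DESeq2 1.42.0, limma 3.58.1 and sva 3.50.0. Scripts were tested on simulated data. Named genes were the 12 higher and 12 lower with the smallest p, the 6 and 6 with the largest change and the 6 and 6 with the smallest p after trend removal (at least 1 CPM, absolute log2 fold change of at least 0.32, the same sign in both surgeries), the genes the study names, up to 3 per list (some are not reported here), and the drug's binding partners. The lists and the comparison were chosen with earlier results of these data known. Replicates are separate mice, and libraries of 1 group differed by more than counting noise (mean chi-square per gene between 10.1 and 42.8).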

Additional observations from a re-analysis of the deposited data

Results flagged for a closer look

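In 14 of 310 sets of 8 libraries with the same agent, the lowest or highest library stood apart by Dixon's test. Chance alone flags about 1 in 20 sets. Sham-DMI replicate 2 was the lowest DMI library for Rpl28 (87.3 CPM, the others 99.9 to 111), Rpl8 (220, the others 246 to 271), Psmb5 (80.4, the others 91.4 to 97) and Psmb3 (84.5, the others 96.6 to 107), and without it 6736 genes were called in place of 6380. SNI-DMI replicate 1 was low for Il6 (0.0523 CPM) and high for Ciita (4.3 CPM, the others 1.62 to 2.32). Sham-DMI replicate 1 was low for Nr4a2 (6.56 CPM) and Sham-DMI replicate 3 high for Hspa8 (1200 CPM, the others 991 to 1080). SNI-DMI replicate 2 held Myh4 at 86.6 CPM.

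Among saline libraries, Sham-Saline replicate 3 was high for Tek (10.6 CPM, the others 6.99 to 8.21). Sham-Saline replicate 1 was high for Chrm2 (26 CPM) and Sham-Saline replicate 2 for Blk (0.452 CPM). SNI-Saline replicate 1 was high for Parp14 (42.3 CPM) and SNI-Saline replicate 2 low for Dek (22.7 CPM).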

How the results depend on the processing

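The 6380 calls became 3989 with GC content and length trends removed and 3719 with the replicate block added to that, 3742 in sham mice and 1812 in SNI mice with fewer libraries, and 1574 with the fold change cut-off added. Leaving out 1 library gave 5237 to 6736 calls. The 1837 genes past the cut-offs of the study became 2830 with no filter on low counts and 1204 in SNI mice, and 1439 to 2098 without 1 library. The cause of these differences was not tested apart from the numbers of libraries and genes. Interaction calls were 0 in edgeR, 16 in DESeq2, and 0 to 1 without 1 library, the 1 being without SNI-Saline replicate 4. Genes without overlap numbered 202, and 116 with trends removed. Of 24 same-numbered pairs, 5 correlated over 0.1 (-0.0813 to 0.184). Pairs with unlike numbers were not set beside them, so whether the replicate numbers pair the samples was not tested. The replicate block gave 6070 calls, 1857 genes past the cut-offs and 0 interactions.

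Of the called genes named here, 102 kept call and sign with trends removed, 27 lost the call and 2 changed sign, Maoa (0.0047, and 0.0048 with the block) and mt-Nd6 (0.0775, and 0.0767 with the block). None changed sign when 1 library was left out. Values of uncalled genes changed sign in sham mice for Adra1b (-0.12), Cfd (0.63), Drd2 (-0.33), Gabrg3 (-0.50), Il6 (0.54) and Kcnk3 (-0.12), and in SNI mice for Adra1d (0.0804), Chrm1 (0.20), Chrm4 (0.17) and Myh4 (1.68). The called Nts had -0.0545 in SNI mice. Gabrg3 had -0.00099 with upper-quartile scaling, -0.0382 with no surgery term and -0.000313 with the block, and Myh4 had 0.93 with no surgery term and 0.97 with 1 surrogate variable. Without 1 library, values ranged from -1.07 to 0.21 for Cfd, -0.143 to 0.0297 for Chrm1, -0.0918 to 0.0514 for Chrm4, -0.0142 to 0.246 for Drd2, -0.11 to 0.13 for Gabrg3 and -4.11 to 0.99 for Myh4. The difference in pairs on genes ranged from -4.803 to 0.652 mega-pairs and that in the share of low quality pairs from -0.01941 to 0.0203 percentage points.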
